A study of Glycine max with 4 samples.

Results

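The FLOWERING LOCUS T (FT) family of soybean was followed as 9 genes chosen by their identifiers in the count table, out of 56044 genes listed there. The members were FT1a (Glyma.18G298900), FT1b (Glyma.18G299000), FT2a (Glyma.16G150700), FT2b (Glyma.16G151000), FT3a (Glyma.16G044200), FT3b (Glyma.19G108100), FT4 (Glyma.08G363100), FT5a (Glyma.16G044100) and FT5b (Glyma.19G108200). All 9 were found. The identifiers name the chromosome ahead of the letter G, which places the family on chromosomes 8, 16, 18 and 19.

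FT proteins are small mobile signals of flowering. In plants that have been studied closely, FT is transcribed in the veins of leaves when day length is right, and the protein moves to the shoot tip, where it binds a bZIP factor and switches on the genes of floral meristem identity. Soybean kept many FT copies with unlike roles: FT2a and FT5a promote flowering, while FT1a and FT4 delay it. The maturity factor E1 represses FT2a and FT5a under long days and raises FT4.

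RNA was sequenced from shoot tips of 5 cm, immature trifoliate leaves included, of soybean cultivar Thorne grown in a greenhouse for 1 month. Both tagged plants (tagged 1 and 2) were transgenic and carried the mmPing20F insertion at chromosome 8 position 2785626; this element, based on the rice transposon mPing, is meant to activate genes beside it. Untagged 1 was transgenic too, holding the construct that expresses the transposase but not this insertion, and untagged 2 was untransformed Thorne. Each library came from 1 plant, so transgenic status rests on a single untransformed plant, and its line, stage and handling cannot be told apart from its lack of a transgene. The libraries held between 27900266 and 49210060 counts. The labelled tissue could not be checked against marker genes, because no source used here pairs the identifiers with gene functions.

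Most FT counts came from the untransformed plant, and among the transgenic plants only FT4 in tagged 1, with 10 raw counts, was above 3. FT2a, FT1b, FT4 and FT1a were each higher in it than in all 3 transgenic plants, and FT2b, FT3a, FT3b and FT5b had no count in any plant. The 9 members together had 342 raw counts in the untransformed library, against 11 in tagged 1, 3 in tagged 2 and 4 in untagged 1. Among all genes with a count, 41.7% were also higher in the untransformed plant than in each transgenic plant, so the order alone is common in these data. The sizes of the differences, given below, were less common for these 4 genes.

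**Figure D1:**
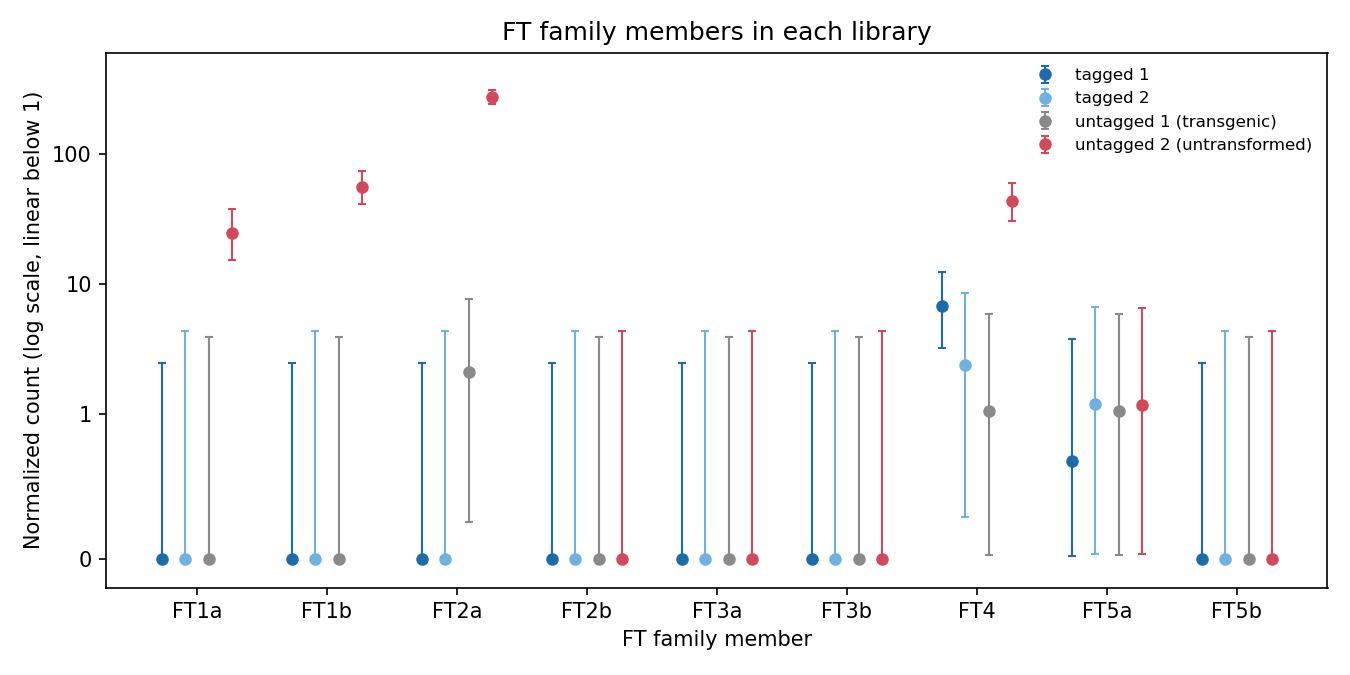
Normalized counts (raw counts divided by the library's size factor, log scale that is linear below 1) of the 9 FT members, 1 point per library with exact Poisson 95% intervals that cover counting error only. FT2a, FT1b, FT4 and FT1a stand at 276, 56.4, 43.4 and 24.7 in the untransformed library, above the intervals of the other 3.

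FT2a, a promoter of flowering whose loss delays flowering in soybean, had 235 raw counts in the untransformed library, 2 in untagged 1, 0 in tagged 1 and 0 in tagged 2. In normalized counts, which divide each raw count by a size factor for its library, this was 276 (95% Poisson interval 242 to 314) against 2.12, 0 and 0. The untransformed plant lay far outside the range of the transgenic plants. The scaled ratio of the untransformed library to the 3 transgenic libraries together was 450, with a counting interval of 123 to 3741. Against untagged 1 alone it was 130 (35.6 to 1080). Tagged 1 was the most deeply sequenced library, and a count of 0 there allows up to 0.061 CPM (3 counts of the library total, scaled to CPM), while FT2a was at 6.87 CPM in the untransformed library.

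FT2b, which lies 3 identifiers after FT2a and also promotes flowering, had 0 counts in all 4 libraries. The floor of 3 counts equals 3.52 normalized counts in the untransformed library and between 2.02 and 3.58 in the others. The upper ends of the 95% Poisson intervals for a count of 0 were higher. They were 4.33 in the untransformed library and between 2.49 and 4.40 in the others. The FT2a reads were therefore not matched by detectable FT2b reads at this depth. How reads that fit more than one member were counted is not given in the sources used here, and FT copies are similar to each other, so the division of reads within each pair is uncertain.

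FT1a and FT1b carry consecutive identifiers on chromosome 18, and both had counts in the untransformed plant alone. FT1a, a delayer of flowering, had 21 raw counts there and 0, 0 and 0 in tagged 1, tagged 2 and untagged 1. FT1b had 48 there and 0, 0 and 0 in the same 3 libraries. The untransformed levels were 24.7 (95% Poisson interval 15.3 to 37.7) and 56.4 (41.6 to 74.7) normalized counts. The untransformed counts were set against a floor of 3 counts over the 3 transgenic libraries together. Taken as exact, without their own counting error, they put FT1a at least 26.8-fold higher and FT1b at least 61.3-fold higher in the untransformed plant.

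FT4, the other delayer of flowering, is the only one of the 9 members on the chromosome of the tag. No coordinates could be matched to the identifiers, so the distance of FT4 from the tag was not measured. FT4 was the one family gene with more than 3 counts in a transgenic plant. Its raw counts were 37 in the untransformed library, 10 in tagged 1, 2 in tagged 2 and 1 in untagged 1. The normalized counts were 43.4, 6.74, 2.38 and 1.06 in the same order. The untransformed plant was highest, and the transgenic plants were not separated from each other beyond counting error. The ratio of the untransformed to the 3 transgenic libraries was 10.9 (counting interval 5.67 to 22.4), and to tagged 1 alone it was 6.44 (3.14 to 14.5). Between the tagged plants and untagged 1 the ratio was 4.87, with an interval of 0.721 to 208 that spans equality.

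FT5a, the second well-known promoter of flowering, was at the limit of detection everywhere, with 1 raw count in each of the 4 libraries. Its normalized counts ran from 0.674 to 1.19, and the untransformed plant lay within the range of the transgenic plants. The gene numbered next to it, FT3a, and the pair FT3b and FT5b on chromosome 19 had 0 counts in every library. FT3a, FT3b and FT5b hasten flowering when expressed in Arabidopsis. In all, 4 of 9 members had no count anywhere, against 14.7% of all genes.

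Levels are not ordered between members, since no transcript length could be matched to these identifiers. Differences between plants can be set side by side. On log2(normalized count + 1), the untransformed library exceeded the mean of the 3 transgenic libraries by 7.57 for FT2a, 5.84 for FT1b, 4.68 for FT1a, 3.56 for FT4 and 0.15 for FT5a; this scale understates the change of genes near 0. Of 47796 genes with a count, 57 (0.119%) had a difference at least as large as that of FT2a, 0.496% as large as FT1b, 1.22% as large as FT1a, 2.80% as large as FT4 and 44.6% as large as FT5a. FT1a and FT1b belonged to 74 genes (0.155%) with at least 20 counts in the untransformed library and 0 in the other 3. The same pattern in another library was rare, with 2 genes for tagged 1, 0 for tagged 2 and 3 for untagged 1. FT1a, FT1b and FT2a were among 1043 genes (2.18%) that were at least 10-fold above each transgenic library with at least 20 counts. These limits were set with the members' values known, and the shares describe these libraries.

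**Figure D2:**
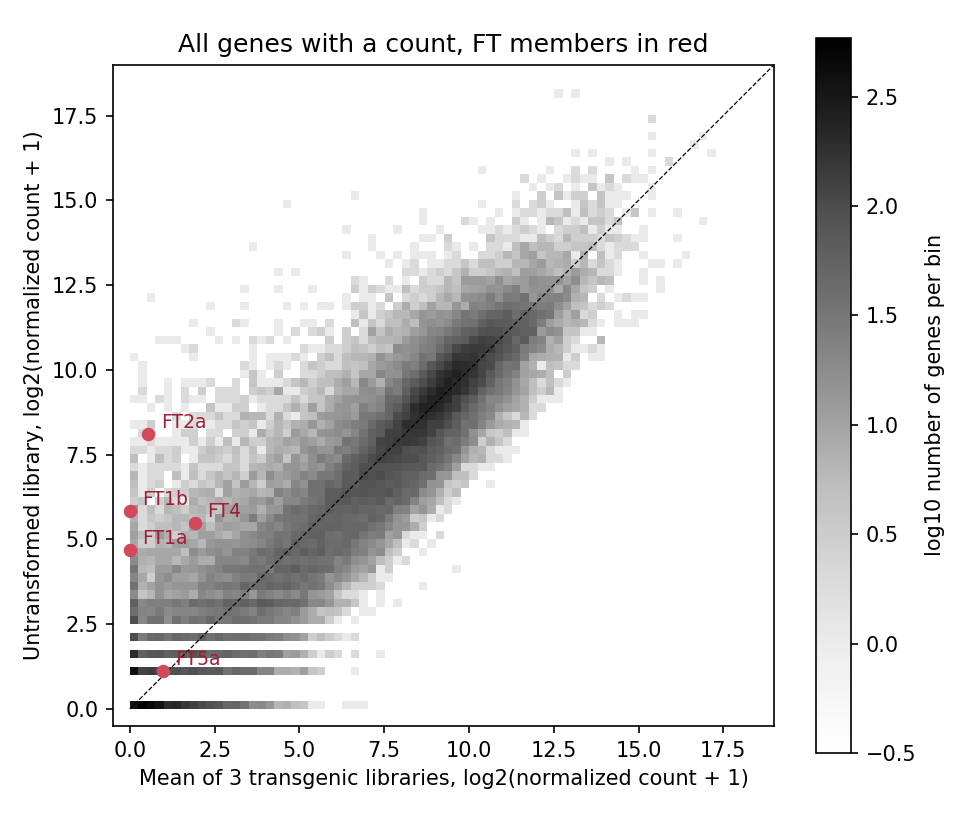
Each grey bin counts genes by their mean log2(normalized count + 1) in the 3 transgenic libraries (x axis) and their value in the untransformed library (y axis), and the red points are the 5 FT members with a count. FT2a, FT1b, FT1a and FT4 lie 7.57, 5.84, 4.68 and 3.56 above the dashed line of equality, and FT5a lies 0.15 above it.

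The genes numbered beside the FT members did not share the size of their differences. Up to 3 identifiers on each side of each locus, and those between FT2a and FT2b, gave 32 neighbours, of which 28 had a count. Of these neighbours 0 were at least 10-fold above each transgenic library with at least 20 counts. Only 2.18% of all genes with a count met this rule, so 0 of 32 says nothing particular about these loci. In the 24 neighbours that reached 20 counts in some library, the difference on the same log2 scale ran from -2.82 to 1.54 with a median of -0.23, and 9 were higher and 15 lower in the untransformed plant. Of all 32 neighbours, 7 were above each transgenic library in the untransformed one and 13 were below each. Among all genes with a count, 41.7% were above each and 38.7% were below each. Around FT2a and FT2b, 3 of 8 neighbours were above each and 3 were below each.

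**Figure D3:**
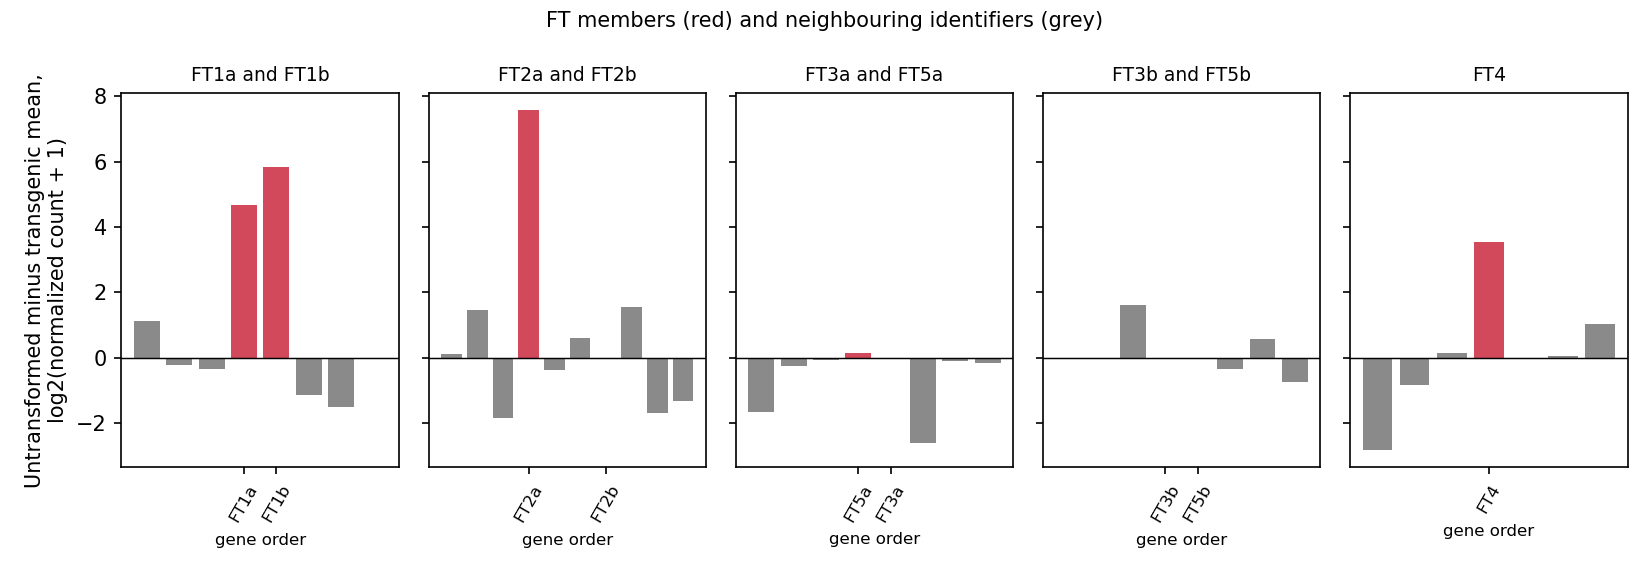
Difference between the untransformed library and the mean of the 3 transgenic libraries in log2(normalized count + 1), for FT members (red) and the identifiers numbered around them (grey), in the order of the identifiers, 1 panel per locus. FT1a, FT1b, FT2a and FT4 rise to between 3.56 and 7.57, and the neighbours that reached 20 counts lie between -2.82 and 1.54.

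The genes most like FT2a across the 4 libraries, by the smallest Euclidean distance of centred log2(normalized count + 1) among genes with at least 20 counts in some library, were Glyma.20G148100 and Glyma.10G021100. Glyma.20G148100 had 423 normalized counts in the untransformed library and 0.674, 1.19 and 4.25 in tagged 1, tagged 2 and untagged 1, at a distance of 0.39. Glyma.10G021100 had 227 there and 0, 0 and 1.06, at a distance of 0.49. Between the 4 members that reached 20 counts in a library, the distance was smallest for FT1a and FT1b, at 1.01, and largest for FT2a and FT4, at 4.31; the members at 0 to 1 counts were not compared. With 4 libraries, 3 of them near 0, such a likeness mostly reflects the untransformed plant.

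The contrast of the untransformed plant with the 3 transgenic plants was fitted over all 40884 genes that passed edgeR's filter on low counts. The untransformed side is 1 library, whose spread the test takes from the 3 transgenic libraries, and FT1a, FT1b, FT2a and FT4 reached the filter only through that library, where they were high. Their p-values therefore describe how far this library lies from the other 3 and are not evidence about transgenic plants in general. By edgeR's quasi-likelihood test the Benjamini-Hochberg adjusted p was 2.0e-04 for FT2a, 0.00306 for FT1b, 0.0095 for FT1a and 0.0106 for FT4. The edgeR log2 fold change of transgenic over untransformed plants was -8.52 ± 0.68 (SE) for FT2a and -3.46 ± 0.78 for FT4. DESeq2 gave -8.65 ± 3.47 for FT2a and -3.61 ± 1.30 for FT4. The FT2a change rests on 2 raw counts in all the transgenic libraries together, so its size is uncertain. Fitted changes for FT1a and FT1b rest on edgeR's prior count, and their bounds above stand in their place. In this direction 25.8% of all tested genes passed, the number of members says nothing beyond their values, and the other 5 members were not tested.

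The study's own comparison set both tagged plants against both untagged plants, to ask which genes the tag changed. No FT member was high in the tagged plants. FT2a averaged 0 ± 0 normalized counts with the tag and 139 ± 194 without it (mean ± SD, n = 2 each), FT1b 0 ± 0 and 28.2 ± 39.9, FT1a 0 ± 0 and 12.3 ± 17.4, and FT4 4.56 ± 3.08 and 22.3 ± 30. The large SDs of the untagged group come from its 2 unlike plants, and for FT2a, FT1a, FT1b and FT4 untagged 1 was at or below 2.12. All 9 members missed the filter on low counts, so 0 were tested among 38824 genes, of which 0% passed in edgeR (444 genes at an unadjusted p under 0.05) and 4 were higher and 15 lower in DESeq2. Without the filter, FT2a had an unadjusted p of 0.0456 and an edgeR adjusted p of 0.943, and FT1b, FT1a and FT4 had the same adjusted p. When untagged 1 was left out and both tagged plants met the untransformed plant by itself, 4 members fell under the edgeR threshold, all lower in tagged plants, where 25.6% of 40640 tested genes were lower as well. In that fit the tagged pair supplies the spread of the single untransformed library, through which alone the 4 members reached the filter, so it adds nothing to their counts.

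Among the 3 transgenic plants, where the tagged pair met untagged 1 alone, 0 members passed the filter and 0.0101% of 39528 genes were called by edgeR. With no filter, FT4 had an edgeR adjusted p of 0.816 and FT5a, with a log2 fold change of -0.24 ± 2.51 (SE) for tagged over untagged, an edgeR adjusted p of 0.985. FT2a had 0 counts in both tagged plants and 2 in untagged 1, all at or under the floor. At 1 to 10 counts a difference associated with the tag was not detectable at this depth.

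Other genes of the flowering pathway were taken as 28 identifiers set down from general knowledge as light receptors and clock genes, E1 and CONSTANS-like regulators, a bZIP partner, floral targets, TFL1-type antagonists and other genes of the same protein family. No file used here ties these identifiers to their names, so they are given as a group and not named. In the contrast with the untransformed plant, 24 could be tested, and some of them may have passed the filter only through that single library. As for the members, the calls describe how far this library lies from the transgenic ones and are not evidence about transgenic plants in general. By edgeR's adjusted p, 0 were higher and 13 were lower in the transgenic plants, beside 25.8% lower among all tested genes. The list's median log2 fold change was -0.77, and that of all tested genes was 0.03. Upper-quartile scaling, which moved the median of all genes to 0.21, gave 1 higher and 11 lower with a list median of -0.59; over all genes it turned 9510 higher and 10555 lower into 11739 and 8675. In level, 27 of the 28 had a count, and 19 of these were higher in the untransformed plant than in each transgenic plant and 6 were lower than in each, beside 41.7% and 38.7% of all genes with a count. Between tagged and untagged plants 18 could be tested and 0 passed in edgeR or DESeq2. Without untagged 1, where 21 could be tested, the list median was -0.87 and that of all tested genes was 0.02, again against the untransformed library by itself. As for the tagged pair and untagged 1, 21 could be tested and 0 passed in edgeR or DESeq2.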

How the data were processed

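RNA-seq libraries of 4 soybean shoot tips were analysed. The submitters' processing notes name HISAT2 2.1.0, HTSeq 0.6.1, CASAVA 1.8 and DESeq2. The sources used here give no genome build, annotation, strand setting or treatment of reads with several matches. The authors deposited raw read counts per gene and a table of scaled signal, in which every library's counts are divided by its own size factor (tagged 1: 1.48, tagged 2: 0.839, untagged 1: 0.942, untagged 2: 0.852). Undoing that division returned whole reads, within 0.01, equal to the raw counts at 100% of values. This signal is the normalized count of the text.

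The names of the 9 members came with the rule that chose them. The reference table (RefSeq, Glycine_max_v4.0, 59048 genes) holds 0 of these identifiers, so no coordinates, lengths or sequences are given. The members and lists were chosen with earlier results of these data known. The rule for naming took all members, the 2 genes nearest in profile to the member with the highest mean normalized count, and neighbours.

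The main test was edgeR 4.0.16 (R 4.3.3) quasi-likelihood on raw counts with TMM scaling, the default filter, group as the only term, and Benjamini-Hochberg adjustment over all tested genes at 0.05. For edgeR, SEs are the absolute change over the square root of F, and for DESeq2 they are those it reports. Other settings used DESeq2 1.42.0 or limma-voom (limma 3.58.1), other scalings and filters, a replicate block, a covariate for transgenic status, or fewer libraries. The edgeR fits were also run on simulated data, where only genes with mean counts above those of every member were changed. That run does not cover genes at the members' levels. Intervals at 95% are exact Poisson for counts and exact conditional binomial for ratios (scipy 1.17.1); they and the floor of 3 counts cover counting error only. No source says that plants of a group were grown separately, so p-values measure the spread between these libraries. Chi-square per degree of freedom was at least 17.6 for any pair of libraries, so none repeated another.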

Additional observations from a re-analysis of the deposited data

How the results depend on the processing

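In the contrast of transgenic plants with the untransformed plant, the log2 fold changes of FT1a, FT1b, FT2a and FT4 had the same sign and stayed under the threshold in the settings that tested them; since all of these use the same single untransformed library, through which these genes reached the filter, this does not show stability. The number of members past the threshold was 4, and 1 under the filter of a mean of 50 counts, which only FT2a passed. Leaving out 1 transgenic library kept it at 4, moved FT2a from -11.17 (without untagged 1, where the transgenic libraries left have 0 counts) to -7.76 and FT4 from -4.55 (without tagged 1) to -3.07 (without untagged 1). A 2-fold minimum, chosen after seeing the data, gave 2852 higher and 4201 lower genes.

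Between tagged and untagged plants the counts of 0 higher and 0 lower genes became 4 and 15 with DESeq2. DESeq2 without the filter, chosen after seeing the data, gave 6 and 26. FT2a had a DESeq2 adjusted p of 0.77 there and was the only member given one, so no other member could pass. With transgenic status as a covariate 2 genes were higher. Over the fits without 1 of the 4 libraries, FT members past the threshold ran from 0 to 4, higher genes from 0 to 9669 and lower genes from 0 to 10419; the upper ends came without untagged 1. With the replicate number as a block, 0 genes passed and 0 members were tested. Same-numbered libraries had deviations from their group means correlated at -0.052. With 2 libraries per group these deviations are equal and opposite, so this value cannot tell whether the numbers mark pairs. The main test did not treat the numbers as pairs. Reads recovered from the scaled table, chosen after seeing the data, gave 0 and 0 genes.

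Among the transgenic plants 2 genes were higher and 2 lower. RLE scaling gave 3 higher and 5 lower, upper-quartile scaling 35 and 7, no filter 318 and 43, DESeq2 214 and 22, and limma-voom 0 and 0, with 0 FT members past the threshold in each. Leaving out a tagged library there was not run, since 2 libraries leave no spread. The cause of these changes was not tested. Depth limits the members at 0 to 3 counts, for which a difference of several fold would not be seen.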
